A study of Mus musculus with 12 samples.

Results

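Liver RNA from mice refed with fructose was compared with liver RNA from mice refed with sucrose, within the libraries labelled MED13-LKO. The comparison took 4 of the 12 libraries of the study, 2 for each sugar, and covered the 12366 of 16346 deposited genes whose mean normalized count over the 12 libraries was at least 10. A normalized count is a read count per gene that the authors had already scaled between libraries, and differences are given as fructose minus sucrose on the scale log2(normalized count + 1), which understates the change of genes with low values. The comparison asks which genes respond to the kind of sugar in livers in which the gene of a Mediator subunit was targeted.

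All mice were 12-week-old C57BL6J animals, and RNA was isolated from whole liver. The sucrose and the fructose group labelled MED13-LKO both carried floxed *Med13* alleles and *Alb*-Cre, which is driven by the albumin promoter. The study describes the knockout as selective for hepatocytes. After an overnight fast, both groups ate normal chow for 4 h and drank water with either 30% sucrose or 30% fructose, while the fasted MED13-LKO mice, shown for reference, were killed after 16 h without food. Control mice carried the floxed alleles without Cre and were fed in the same ways. Each library came from 1 mouse, and no unsweetened-water group was analysed here.

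Sucrose is split in the gut into glucose and fructose, so the sucrose group received both sugars and the fructose group received only fructose besides the starch of the chow. Glucose raises insulin, which acts in the liver through FOXO1 and SREBP1c to lower glucose production and raise fatty acid synthesis. Fructose enters the liver cell through transporters such as GLUT2, is phosphorylated by ketohexokinase and split by aldolase B, and its products activate the transcription factor ChREBP. MED13 joins the kinase module, which holds CDK8 or its paralog CDK19, to the core of Mediator, a large complex through which transcription factors reach RNA polymerase II.

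The targeted gene did not check the labels: *Med13* stood at 646 and 717 in the MED13-LKO mice on sucrose and at 681 and 1055 in those on fructose, against 578 to 778 in the 4 control mice given the same sugars. These are gene totals, and whether reads came from the floxed exons was not examined here. The fed MED13-LKO libraries also had a summed count of 8 female-biased liver genes of 4201 to 7079, against 106 to 328 in the fed control libraries, and a summed count of 10 male-biased liver genes of 83518 to 126617, against 382308 to 1007676. Y-linked genes were expressed in all 12 libraries, with sums of 3031 to 3692. Within the fed MED13-LKO libraries the normalized counts summed to between 17310000 and 18180000, and between 16100000 and 24200000 reads on genes were estimated from the spacing of low values. The 8 hepatocyte markers tested, such as *Alb*, had a median difference between the sugars of -0.05, and none of the 8 lymphocyte, 6 adipocyte and 8 pancreas markers had a mean of at least 10.

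Few genes separated the sugars beyond the spread between mice. In limma, with all 12 libraries in one fit, 5 genes passed an adjusted p of 0.05, all of them lower with fructose, which is 0.0404% of the genes tested. No gene passed in the other direction, although 494 genes were higher at an unadjusted p under 0.05, which is 3.99% of the genes tested, and 457 genes or 3.7% were lower. Of all genes tested, 70.8% differed by less than 0.25 on the log2 scale, and 2.98% differed by more than 1. The median standard error was 0.176. Libraries of 1 sugar were about as alike as libraries of different sugars: Pearson's r across genes, which are not independent replicates, was 0.974 between the fructose mice, 0.979 between the sucrose mice, and 0.970 to 0.975 between mice of different sugars. With 2 mice per group, an exact permutation test of a single gene cannot give a two-sided p below 0.333, so the calls rest on a spread shared across the 6 groups and across genes. No source states more than that the libraries are separate samples, and the replicate numbers do not identify littermates.

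The 5 genes called were *Phlda1*, *Nlrp12*, *Cish*, *Pmaip1* and *Col1a1*. *Phlda1* encodes a pleckstrin homology-like protein whose RNA is known to be induced by growth factor and ERK signalling, and it lies on chromosome 10 of GRCm38 from 111506286 to 111508645. *Phlda1* had normalized counts of 1775 and 2461 with sucrose and 427 and 433 with fructose, and 464 and 408 in the fasted mice of the same genotype. The fructose mice thus sat at the fasted level, and the sucrose mice were 4.93-fold higher on average. The difference was -2.28 with a standard error of 0.22 (limma, adjusted p = 0.00818). In control mice *Phlda1* was high with either sugar, at 3135 and 2332 with sucrose and 2583 and 1677 with fructose. Of its 31-base subsequences, 30.8% also occur in another gene, so part of its count could belong elsewhere.

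*Cish* encodes a member of the SOCS family, which is induced by STAT5 and damps signalling from cytokine and growth hormone receptors, and it lies on chromosome 9 from 107296026 to 107302784. *Cish* had normalized counts of 612 and 676 with sucrose and 129 and 66.1 with fructose, and 132 and 139 in the fasted mice. Both fructose mice were below both fasted mice, and the groups given sugar did not overlap. *Cish* fell by 2.79 on the log2 scale with a standard error of 0.31 (limma, adjusted p = 0.0177). In control mice *Cish* again showed no such gap, with 980 and 670 for sucrose and 910 and 584 for fructose.

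*Nlrp12* encodes a NOD-like receptor known to restrain inflammatory signalling, and it lies on chromosome 7 from 3218784 to 3249740. *Nlrp12* had normalized counts of 42.3 and 35.5 with sucrose and 0 and 1.07 with fructose, and 2.07 and 0.928 in the fasted mice. It was close to absent in 4 of the 6 MED13-LKO libraries and present in both sucrose libraries. The fitted difference of -4.79 (standard error 0.47, limma, adjusted p = 0.00818) depends on the pseudocount, and was -6.83 with a pseudocount of 0.1 and -2.21 with one of 10. In control mice *Nlrp12* was present with both sugars, at 44.0 and 90.7 for sucrose and 113 and 104 for fructose.

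*Pmaip1* encodes NOXA, a BH3-only protein that promotes apoptosis, and it lies on chromosome 18 from 66458533 to 66465565. *Pmaip1* had normalized counts of 20.8 and 14.4 with sucrose, was listed at 0 in both fructose libraries, and stood at 21.7 and 17.6 in the fasted mice (limma, adjusted p = 0.0253). Here the fructose mice differed from the fasted mice as well as from the sucrose mice. In control mice *Pmaip1* was at 12.4 to 24.8 with either sugar. Because these are estimated counts, a value of 0 can also be a failed estimate, and no fold is given.

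*Col1a1* encodes the first chain of type I collagen, made in the liver mainly by stellate cells and fibroblasts, and it lies on chromosome 11 from 94936224 to 94953042. *Col1a1* had normalized counts of 583 and 643 with sucrose, 304 and 323 with fructose, and 278 and 269 in the fasted mice. The sucrose mice stood 1.95-fold above the fructose mice. *Col1a1* fell by 0.96 on the log2 scale with a standard error of 0.12 (limma, adjusted p = 0.0258). Its partner chain gene *Col1a2* went the same way without passing, from 426 and 610 with sucrose to 268 and 263 with fructose (limma, adjusted p = 0.176). In control mice *Col1a1* stood at 445 and 370 with sucrose and 362 and 353 with fructose.

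**Figure D1:**
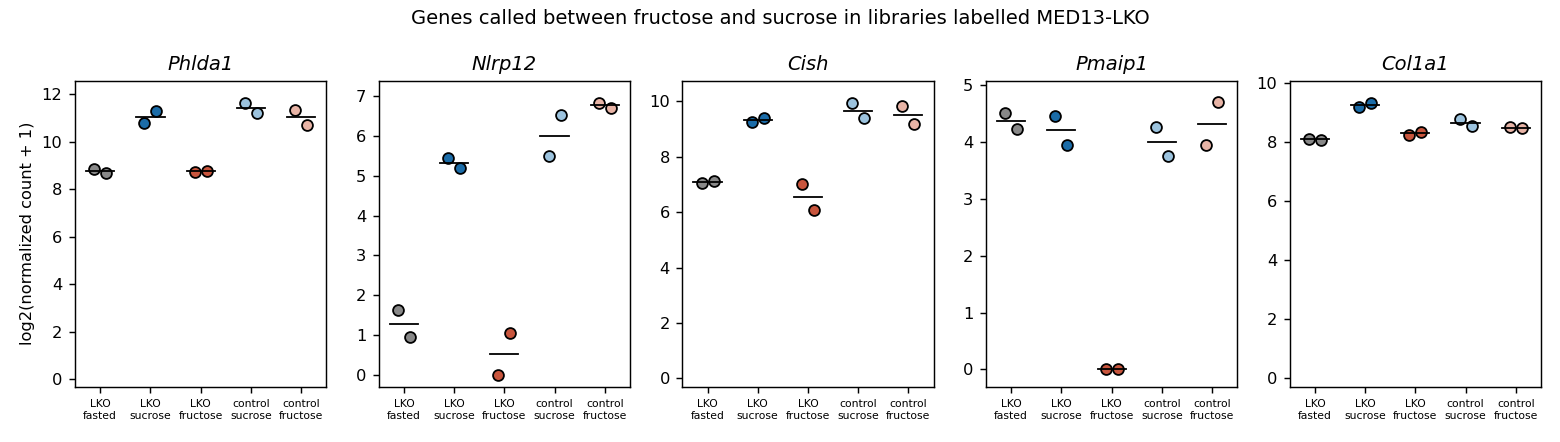
Each panel plots log2(normalized count + 1) of 1 called gene, with 1 point per mouse and a bar at the mean of the 2 mice, for the fasted, sucrose and fructose groups labelled MED13-LKO and the control mice given each sugar. The 2 MED13-LKO fructose points lie below the 2 MED13-LKO sucrose points in every panel, and the control points for the sugars overlap or lie closer together than the MED13-LKO points.

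Calls were lost when a mouse was left out, most of all a sucrose mouse. Such a fit leaves 1 mouse in that group and is less able to call any gene. The losses therefore do not show that a single mouse carried the calls. Without sucrose replicate 2 no gene was called lower, and without sucrose replicate 1 the count was 1, which was *Phlda1* (limma, adjusted p = 0.0288). Across 12 other settings *Phlda1* kept its call in 10, *Cish* in 8, *Nlrp12* in 7, and *Pmaip1* and *Col1a1* in 4 each. No setting reversed the direction of any of the 5 genes.

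The promoter windows of *Cish* and *Nlrp12* both held a short motif, and the selection of the genes did not use it. The motif TTCNNNGAA, in which N is any base and which reads alike on both strands, is the core bound by STAT factors. Windows from 250 bases before to 50 bases after the RefSeq start (GRCm38.p6) were at hand for 9 of the 13 genes that were called or were among the 12 lower genes with the smallest p values, and 2 of the 9 held the motif. It occurs in 8.3% of all 32851 such windows and in 0 of 9 among the 12 higher genes. The 9 are counted by gene and the 32851 by window, and 2 of 9 is too small a count to set apart from that share. It was 1 of 3 motifs searched. The E-box CACGTG was in 0 of the 9 lower genes, in 1 of the 9 higher genes and in 7.15% of all windows. For the AP-1 motif TGANTCA these were 1 of 9, 0 of 9 and 7.81%. A match is a description of the letters and does not show a bound site. The stretches around the matches are given 5′ to 3′ on the gene's strand, with the motif in capitals. *Socs3*, another known STAT target described further on, is added because its window also holds it, so it adds no support. *Socs2*, *Gadd45g* and *Spred2* were searched as well, and no match to this motif was found for any of them.
Cish, chr9:107296609-107296683, plus strand: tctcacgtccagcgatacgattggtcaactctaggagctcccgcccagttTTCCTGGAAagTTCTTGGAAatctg
Nlrp12, chr7:3249860-3249968, minus strand: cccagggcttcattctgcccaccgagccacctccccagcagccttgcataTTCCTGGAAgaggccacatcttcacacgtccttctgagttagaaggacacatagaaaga
Socs3, chr11:117969462-117969570, minus strand: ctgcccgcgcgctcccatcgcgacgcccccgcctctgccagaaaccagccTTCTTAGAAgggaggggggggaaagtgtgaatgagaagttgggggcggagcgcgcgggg
The *Cish* window holds the motif 2 times, at 0 and at 11 bases from the start, the *Nlrp12* window holds it 178 bases before the start, and the *Socs3* window holds it 154 bases before the start.

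Beyond the called genes, the other lower genes with the smallest p values whose mice did not overlap, whose mean was at least 50 and of whose 31-base subsequences under 50% recur in other genes were *Cyp2b9*, *Spry4*, *Sucnr1*, *Mfsd4b1*, *Serpine2*, *Cnmd*, *Gna14* and *Col1a2*. *Cyp2b9*, a cytochrome P450 gene with female-biased expression in mouse liver, had the widest gap. *Cyp2b9* stood at 485 and 576 with sucrose, at 0.985 and 0 with fructose, and at 3.10 and 0.929 in the fasted mice, and at 1.10 to 77.6 in the fed control mice. Only the 2 MED13-LKO sucrose libraries held it above 100, yet it did not pass in the main fit (limma, adjusted p = 0.0913). It did pass in the fit of the 4 compared libraries (adjusted p = 0.00459), in that of the 6 MED13-LKO libraries (adjusted p = 0.00757) and with a pseudocount of 10 (adjusted p = 0.0213).

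*Spry4*, an inhibitor of receptor tyrosine kinase signalling to ERK, had 113 and 123 with sucrose and 36.4 and 33.3 with fructose, against 131 and 79.8 when fasted (limma, adjusted p = 0.0913). *Serpine2*, a secreted protease inhibitor, had 437 and 352 with sucrose and 63.0 and 152 with fructose (adjusted p = 0.144). *Gna14*, a G protein alpha subunit, had 345 and 304 with sucrose and 77.8 and 120 with fructose (adjusted p = 0.149). For *Gna14* and *Serpine2* the sucrose mice were above the fasted mice, and for *Spry4* and *Serpine2* the fructose mice were below them. *Sucnr1*, the receptor for succinate, had 157 and 182 with sucrose and 62.1 and 79.5 with fructose, and was lower with fructose by a like amount in control mice, at -0.99 against -1.26.

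The 12 higher genes with the smallest p values were *Gripap1*, *Ssr2*, *Chd8*, *Sae1*, *6430548M08Rik*, *Polrmt*, *Kyat3*, *Stx5a*, *Rps7*, *Aak1*, *Hsp90ab1* and *Kmt5a*. None passed the adjustment, with limma's adjusted p between 0.0913 and 0.211. Their differences ran from 0.40 to 1.70, and 10 of the 12 were under 1 on the log2 scale. *Gripap1*, an endosomal trafficking protein, had 455 and 445 with sucrose and 655 and 693 with fructose. *Chd8*, a chromatin remodeller, had 347 and 335 with sucrose and 576 and 518 with fructose. *Kyat3*, which transaminates kynurenine, had 4738 and 5426 with sucrose and 7052 and 7799 with fructose. For *Kyat3* the fasted mice, at 7185 and 6992, stood with the fructose mice, and so did those for *Sae1*, a subunit of the SUMO-activating enzyme, at 678 and 652 beside 726 and 689 with fructose and 451 and 446 with sucrose.

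**Figure D2:**
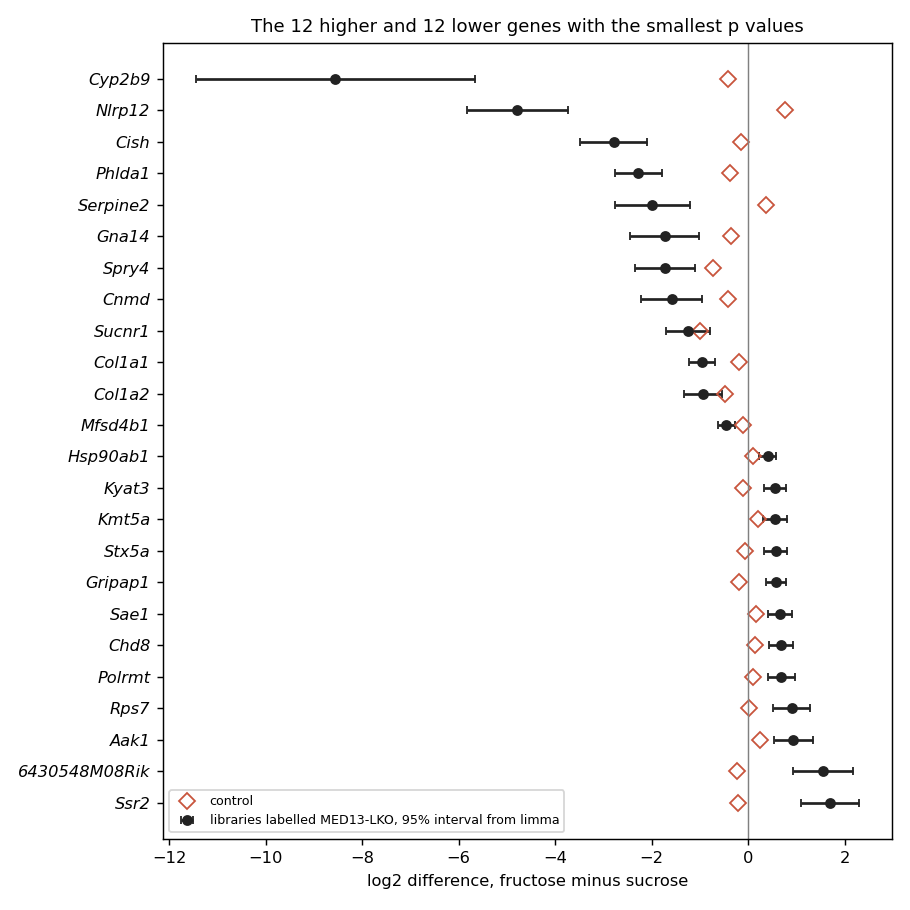
The difference fructose minus sucrose on the log2 scale is plotted for the 12 lower and the 12 higher genes with the smallest p values, with filled points and 95% intervals from limma for the libraries labelled MED13-LKO and open diamonds for the control mice. The intervals of the 24 MED13-LKO values exclude 0 because the genes were picked by p, and *Cyp2b9* has the widest interval, from -11.4 to -5.67.

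The fatty acid synthesis genes, which insulin and carbohydrate induce, did not separate the sugars beyond the spread between mice. Of 12 genes of de novo lipogenesis, 11 were lower with fructose, none at an unadjusted p under 0.05, and the list median was -0.18 against -0.01 over all genes tested. *Fasn*, the fatty acid synthase, had 5983 and 12721 with sucrose and 6768 and 9007 with fructose, so both fructose mice lay between the sucrose mice. Its difference was -0.16 with a 95% interval from -0.98 to 0.66 (limma, adjusted p = 0.965). The sucrose mice differed from each other throughout the list, and without sucrose replicate 1 the median was -0.68, while without sucrose replicate 2 it was 0.029. *Srebf1*, which encodes SREBP1, had 8685 and 10314 with sucrose and 8034 and 8629 with fructose (adjusted p = 0.935).

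Genes of sugar handling were mostly lower with fructose, by small amounts in the list medians and by more for *Pklr* and *Pfkfb3*. The list of ChREBP and its known targets had a median of -0.34, with 9 of 12 genes lower and 3 of them at an unadjusted p under 0.05, against 3.7% of all genes tested, and no gene passed the adjustment. *Pklr*, the liver pyruvate kinase and a ChREBP target, had 7582 and 10864 with sucrose and 4558 and 4808 with fructose, and 2695 and 1502 when fasted (limma, -0.96, adjusted p = 0.343). *Gpd1*, which makes glycerol 3-phosphate, had 7784 and 7817 with sucrose and 6008 and 6018 with fructose (adjusted p = 0.393). The fructose libraries were the lower ones for both genes, with no overlap. *Mlxipl*, which encodes ChREBP itself, had 3784 and 4789 with sucrose and 3731 and 3504 with fructose (adjusted p = 0.731). Of 8 genes of fructose uptake and breakdown, 7 were lower with fructose, with a median of -0.27, and *Tkfc*, the triokinase, was the only one at an unadjusted p under 0.05. This list shares members with the ChREBP list, *Tkfc* among them, so the lists are not separate evidence. *Pfkfb3*, which makes the activator of phosphofructokinase, had 443 and 578 with sucrose and 254 and 230 with fructose (adjusted p = 0.410).

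No glucose output or glycogen gene passed the adjustment. *G6pc*, the glucose-6-phosphatase catalytic subunit, had 5895 and 6498 with sucrose and 8529 and 9317 with fructose, beside 5887 and 9423 when fasted. The fructose mice were the higher ones without overlap, and the difference of 0.53 did not pass (limma, 95% interval -0.11 to 1.16, adjusted p = 0.721). In control mice *G6pc* had 3077 and 3178 with sucrose and 3665 and 7030 with fructose, a difference of 0.70. The difference between the genotypes was -0.17 (limma, 95% interval -1.07 to 0.725, adjusted p = 0.971). *Pck1*, the cytosolic PEP carboxykinase, had 11275 and 7814 with sucrose and 15349 and 8275 with fructose, far below the 66545 and 66143 of the fasted mice (adjusted p = 0.972). The 11 gluconeogenesis genes had a median of -0.11, and the 1 gene at an unadjusted p under 0.05 was *Pcx*, pyruvate carboxylase, which was lower with fructose at 900 and 600 against 1083 and 1139. The 15 glycogen genes tested had a median of 0.01. Among them *Pygl*, the liver glycogen phosphorylase, differed by -0.34 (limma, adjusted p = 0.548) and *Ugp2*, which makes UDP-glucose, by -0.27 (adjusted p = 0.551). *Gys2*, the liver glycogen synthase, had 4391 and 5568 with sucrose and 4755 and 5545 with fructose. Of 11 genes of insulin action and FOXO1 targets, 7 were higher with fructose, 4 of them without overlap, against 19.7% of all genes tested, and the median was 0.16. The 2 members at an unadjusted p under 0.05 in limma were both lower with fructose, against 3.7% of all genes tested. *Irs2*, an insulin receptor substrate, had 101 and 92.2 with sucrose and 166 and 133 with fructose (limma, adjusted p = 0.652), and *Igfbp1*, a binding protein of insulin-like growth factors, had 62.6 and 60.0 with sucrose and 151 and 82.7 with fructose (adjusted p = 0.815). *Trib1* was lower with fructose, at 494 and 444 against 713 and 736 (adjusted p = 0.227), and *Foxo1* stood at 579 and 457 against 506 and 533 (95% interval of the difference -0.51 to 0.48).

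Cholesterol synthesis genes, the targets of SREBP2, tended to be higher with fructose. Of 21 genes, 19 were higher, 9 of them without overlap between the mice, against 19.7% of all genes tested, and 3 at an unadjusted p under 0.05, and none passed the adjustment. The list median was 0.30. *Sqle*, squalene epoxidase, had 1053 and 1310 with sucrose and 2060 and 1984 with fructose (limma, 0.78, adjusted p = 0.548). *Mvd*, mevalonate diphosphate decarboxylase, had 227 and 297 with sucrose and 419 and 542 with fructose (adjusted p = 0.548). *Hmgcs1*, the HMG-CoA synthase of the pathway, had 2249 and 2760 with sucrose and 3642 and 2924 with fructose (adjusted p = 0.481). *Insig1*, an SREBP target that also holds SREBP back, had 5149 and 9333 with sucrose and 11015 and 12773 with fructose (adjusted p = 0.548). Sucrose replicate 1 was the low library for the list, and without it the median was 0.047, so the difference rested on that mouse. The sterol exporter genes *Abcg5* and *Abcg8*, which are LXR targets, went the other way, with *Abcg8* at 877 and 1021 with sucrose and 588 and 597 with fructose (adjusted p = 0.359).

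Chaperone genes were higher with fructose, most of all in 1 mouse. Of 20 genes of the unfolded protein and integrated stress response, 15 were higher, 13 without overlap, against 19.7% of all genes tested, and 10 at an unadjusted p under 0.05, against 3.99%. None passed the adjustment, and the median was 0.44. *Hspa5*, the main chaperone of the endoplasmic reticulum, had 23051 and 22714 with sucrose and 27113 and 63915 with fructose (limma, adjusted p = 0.591). *Creld2*, an ER stress gene, had 928 and 817 with sucrose and 1511 and 4670 with fructose (adjusted p = 0.377), and *Hyou1*, another ER chaperone, had 4499 and 3612 against 5656 and 10439 (adjusted p = 0.393). Both fructose mice were above both sucrose mice for these genes, but fructose replicate 2 stood far above the other 3. The summed normalized counts of the list were 81515 and 78072 with sucrose and 91757 and 172454 with fructose. They were 86709 and 71175 in the fasted MED13-LKO mice and 120054 to 168438 in the fed control mice. The sum of fructose replicate 2 was thus near those of the fed control mice. Without fructose replicate 2 the list median was 0.22, and without fructose replicate 1 it was 0.64. *Xbp1* and *Atf4*, regulators of the same responses, did not follow, at 3630 and 3936 with fructose against 4651 and 4378 with sucrose for *Xbp1*. *Chac1*, a target of ATF4 that degrades glutathione, was lower, at 15.8 and 10.7 with fructose against 55.4 and 34.6 (adjusted p = 0.177).

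Heat shock genes, of the cytosol except for the mitochondrial *Hspd1* and *Hspe1*, showed a smaller difference that was more even between mice. Of 13 genes, 12 were higher with fructose, 10 without overlap, against 19.7% of all genes tested, and 6 at an unadjusted p under 0.05, against 3.99%. The median was 0.28 and none passed the adjustment. *Hsp90ab1*, the constitutive HSP90, had 14806 and 14148 with sucrose and 18824 and 19484 with fructose (limma, adjusted p = 0.205). *Hspa8*, the constitutive HSC70, had 43444 and 47099 against 55472 and 59515 (adjusted p = 0.461), and *Hspb1*, a small heat shock protein, had 331 and 265 against 525 and 706 (adjusted p = 0.277). These 3 genes were higher in both fructose mice. The 1 lower gene was the inducible *Hspa1a*, at 14.8 and 36.5 with fructose against 47.4 and 67.6 with sucrose, but 70.1% of its 31-base subsequences occur in another gene. Its near copy *Hspa1b*, with 68.1% shared, had 1327 and 1275 with fructose against 892 and 1313 with sucrose, so the split of reads between the copies is uncertain. The median stayed between 0.26 and 0.37 when any 1 of the 4 mice was left out.

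**Figure D3:**
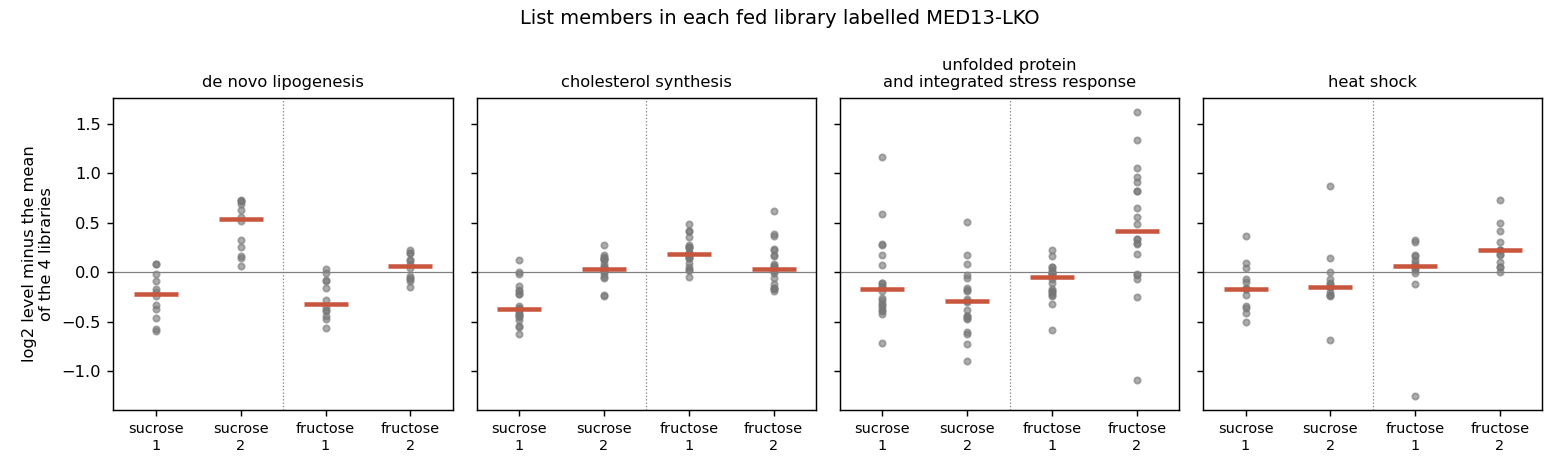
Each grey point is 1 gene of a list in 1 fed library labelled MED13-LKO, as its log2 level minus its mean over the 4 libraries, and each red bar is the median of the list, from 12 genes of de novo lipogenesis to 21 of cholesterol synthesis. Sucrose replicate 2 stands high for lipogenesis (0.54), sucrose replicate 1 stands low for cholesterol synthesis (-0.37), fructose replicate 2 stands high for the unfolded protein response (0.41), and the heat shock bars are below 0 in both sucrose mice and above 0 in both fructose mice.

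Among markers of other liver cells *Col1a1* was the only gene that passed the adjustment. All 10 Kupffer cell and macrophage markers were higher with fructose without overlap, against 19.7% of all genes tested, 2 of them at an unadjusted p under 0.05, against 3.99%, with a median of 0.29. *Cd5l*, a macrophage protein, had 1609 and 1636 with sucrose and 1905 and 2330 with fructose (limma, adjusted p = 0.570). Their summed normalized counts were 6118 and 6259 with sucrose, 7283 and 8147 with fructose and 7203 and 7898 when fasted, so the sucrose mice were the low ones. The list stood in the same direction in control mice, with a median of 0.22. In whole liver, more cells of a type and more RNA per cell cannot be told apart. The 10 sinusoidal endothelial markers had a median of -0.03 and the 11 stellate cell and fibroblast markers a median of -0.04. Among the latter *Col1a1*, *Col1a2* and *Reln* were lower with fructose at an unadjusted p under 0.05 and *Colec11* was higher. *Dcn* and *Col3a1*, which the same cells express, were at 2609 and 2723 with sucrose against 2838 and 2906 with fructose, and at 338 and 319 against 302 and 339.

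Relatives of the called genes *Cish*, *Phlda1* and *Col1a1* were examined in lists drawn up after these values had been seen. Each list counts the gene that prompted it, and the lists support no test. Of 13 genes of STAT feedback and growth hormone signalling, 8 were lower with fructose and the median was -0.05. *Socs3*, a STAT3-induced inhibitor of cytokine signalling, had 189 and 243 with sucrose and 94.6 and 102 with fructose (limma, adjusted p = 0.211). *Socs2*, induced by growth hormone, had 594 and 234 against 171 and 124 (adjusted p = 0.591), and *Bcl6*, a repressor that growth hormone lowers, was the other way round, at 139 and 306 with sucrose and 783 and 590 with fructose (adjusted p = 0.341). For *Bcl6* the fasted mice, at 1203 and 787, were again nearer to the fructose mice. The genes for STAT5A, STAT5B and the growth hormone receptor differed by 0.24 or less on the log2 scale. Of 11 genes of ERK pathway feedback, *Phlda1* and *Spry4* among them, 9 were lower with fructose, 7 of them without overlap, and the median was -0.29. Of all genes tested 21.0% were lower without overlap, and nothing is read from the count in a list chosen in this way. *Spred2*, an inhibitor of the pathway, had 177 and 144 with sucrose and 99.1 and 104 with fructose, while *Dusp6*, another feedback gene, had 574 and 539 against 436 and 494. Of 22 extracellular matrix genes, 4 were lower at an unadjusted p under 0.05, against 3.7% of all genes tested, and the median was -0.03. They were *Mmp2* and, already named above for their small p values, *Col1a1*, *Serpine2* and *Col1a2*, so nothing is read from this count either.

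The difference between the sugars was set beside that in control mice, which shares no library with it. In control mice 5 genes were called as well, which is 0.0404%, and they were other genes. *Nnmt*, the nicotinamide N-methyltransferase, was among them, and so were the immunoglobulin segment *Ighv1-50*, the processed pseudogene *Gm9457* and *Fam177a*. Most of the sequence of *Ighv1-50* and *Fam177a* also occurs in other genes, as given further on. In the MED13-LKO libraries *Nnmt* had 2336 and 2468 with sucrose and 2583 and 2593 with fructose, and it had 1216 and 1141 against 2872 and 2488 in control mice. The control sucrose mice were the low ones. The difference of the 2 differences was -1.07 (95% interval -1.36 to -0.79, limma, adjusted p = 0.0151). This test called 13 genes, 0.105% of those tested. *Acsl3*, a long-chain acyl-CoA synthetase, went in the MED13-LKO libraries from 580 and 712 with sucrose to 899 and 975 with fructose, and in control mice from 1948 and 1715 to 1069 and 1080. The sugars thus ordered *Acsl3* in opposite ways, with a difference of 1.31 between the genotypes (adjusted p = 0.0151). For *Nlrp12* the difference between genotypes was -5.55 on the log2 scale and passed (adjusted p = 0.0151), while for *Phlda1* (adjusted p = 0.0775), *Cish* (0.0868), *Pmaip1* (0.0653) and *Col1a1* (0.321) it did not. Across 11 other settings the call for the difference between genotypes was kept in 8 for *Acsl3*, in 7 for *Nlrp12* and in 5 for *Nnmt*.

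The lipid synthesis lists stood apart between the genotypes by their medians, and so did the unfolded protein and integrated stress response. The latter had medians of 0.44 in the MED13-LKO libraries, which moved with fructose replicate 2 as given above, and -0.13 in control mice. Of its 20 genes, 8 had an unadjusted p under 0.05 in limma for the difference between the genotypes, against 6.91% of all genes tested. None of them passed the adjustment. De novo lipogenesis had a median of -0.18 in the MED13-LKO libraries and -1.05 in control mice, where 10 of the 12 genes were lower with fructose at an unadjusted p under 0.05, against 4.65% of all genes tested. *Fasn* in control mice had 35838 and 19511 with sucrose and 9981 and 8111 with fructose, and the difference between the genotypes was 1.40 with a 95% interval from 0.24 to 2.55 that did not pass adjustment (limma, adjusted p = 0.653). Cholesterol synthesis had medians of 0.30 and -0.73, and 14 of the 21 genes had an unadjusted p under 0.05 for the difference between the genotypes, as did 5 of the 12 lipogenesis genes, against 6.91% of all genes tested, none of them past the adjustment. *Hmgcs1* came nearest, with control values of 4652 and 4629 for sucrose and 2755 and 2567 for fructose, which with the MED13-LKO values gave a difference of 1.19 (adjusted p = 0.0523). For ChREBP targets the medians were -0.34 and -0.47, and *Pklr* differed by -0.96 and -1.06. Without MED13-LKO sucrose replicate 1 the cholesterol median of 0.047 was still above that of the control mice. Without the same mouse the lipogenesis median, given above, moved toward the control value of -1.05 and stayed above it. The size of the lipogenesis gap thus depended on that mouse. The control sucrose mice also differed from each other, with the lipogenesis gene *Scd1* at 167333 and 67058. The gap without a control mouse is not given here.

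**Figure D4:**
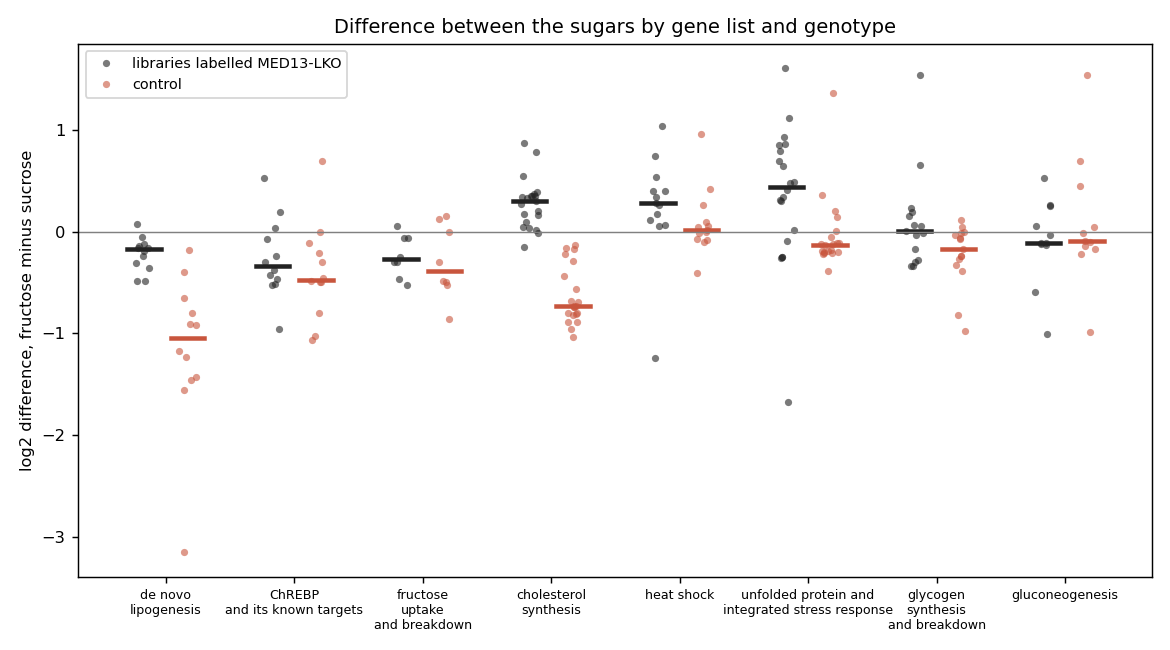
Each point is the difference fructose minus sucrose of 1 gene on the log2 scale, for 8 gene lists, in the libraries labelled MED13-LKO (black) and in control mice (red), with a bar at the list median. The bars lie apart for de novo lipogenesis (-0.18 and -1.05), cholesterol synthesis (0.30 and -0.73) and the unfolded protein and integrated stress response (0.44 and -0.13). They lie close together for ChREBP targets (-0.34 and -0.47) and gluconeogenesis (-0.11 and -0.09).

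Genes that refeeding changed in control mice were followed in the MED13-LKO comparison. Of 219 genes that rose by more than 1 on the log2 scale from fasting to sucrose in control mice, 24 were lower and 13 higher with fructose in the MED13-LKO libraries at an unadjusted p under 0.05, against 3.7% and 3.99% of all genes tested, and 2 were called lower, against 0.0404%. Their median was -0.11 in the MED13-LKO libraries. In control mice it was -0.41, a value that shares the sucrose libraries with the choice of the genes. Of 154 genes that fell from fasting to sucrose in control mice, 14 were higher and 17 lower at an unadjusted p under 0.05, with a median of 0.05.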

How the data were processed

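Liver RNA-seq libraries of 12 mice were used, 2 in each of 6 groups of genotype and diet, grouped by the sample titles. The deposited table holds 1 signal value per gene and library, a normalized count made by the authors, for 16346 genes. Per the labels, 150 bp paired-end libraries were sequenced by a company, and the submitters' processing notes name Trim Galore 0.6.5, kallisto 0.46.0, DESeq2 1.24.0 and mm10. Low values of single-transcript genes fall on steps, from which depth was estimated, but whole reads were not recovered over the table, so no count test was run.

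The log2(normalized count + 1) of the deposited values was fitted in limma 3.58.1 (R 4.3.3) for genes with a mean of at least 10, with all 12 libraries, 6 group means and moderation following the mean. P-values were adjusted by Benjamini-Hochberg over the genes tested, and genes under 0.05 are called. The fit was tested on simulated data. Contrasts were fructose minus sucrose in each genotype and the difference between them. Gene names, positions and shared 31-base subsequences come from GENCODE M21, and promoter windows from RefSeq. Python 3.11.15, NumPy 2.4.6, pandas 2.3.3 and matplotlib 3.10.9 were used.

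The members and gene lists were chosen with earlier results of these data known. Genes named were all called genes, the 12 higher and 12 lower genes with the smallest p that passed the stated filters, list members with the smallest p in each direction, genes that the study measured and genes called for the difference between genotypes. *Xbp1*, *Atf4*, *Dcn*, *Col3a1*, *Dusp6*, *Irs2*, *Igfbp1*, *Hspa1b*, *Ighm* and *Igkc* were named after their values were seen, as were the lists of STAT, ERK, matrix and immunoglobulin genes. Alternatives were other pseudocounts, no filter, rescaling, a block for the replicate number, fits of fewer libraries, no trend and leaving out each mouse. Some genes are not reported here.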

Additional observations from a re-analysis of the deposited data

Results flagged for a closer look

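For 13 genes the difference between fructose and sucrose was itself tested as different between the libraries labelled MED13-LKO and the control libraries (limma, adjusted p under 0.05), and their values are the MED13-LKO difference minus the control difference on the log2 scale. The 5 protein-coding genes were *Nlrp12* at -5.55, *Nnmt* at -1.07, *Acsl3* at 1.31, *Rprd2*, which encodes a protein that binds RNA polymerase II, at 11.71, and *Fam177a* at 6.30. Values of genes listed at 0 depend on the pseudocount. *Rprd2* was listed at 0 in both MED13-LKO sucrose libraries and both control fructose libraries, and stood at 141 and 40.8 in the MED13-LKO fructose libraries and 22.0 and 81.4 in the control sucrose libraries. *Fam177a* was listed at 0 in both control fructose libraries only, and 98.5% of its 31-base subsequences occur in another gene.

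The other 8 genes were immunoglobulin segments and processed pseudogenes, and they showed 1 shared pattern. *Ighv1-50* differed by -7.38, *Ighg1* by -6.60, *Igkv11-106* by -5.82, *Gm13456* by -4.26, *Gm21399* by -5.44, *Gm9457* by -5.93, *Gm4883* by -5.47 and *Rps12-ps24* by -5.46. *Ighv1-50*, for example, had 190 and 196 in the MED13-LKO sucrose libraries, 36.5 and 38.9 in the MED13-LKO fructose libraries, 1.02 and 0 in the control sucrose libraries and 45.3 and 47.1 in the control fructose libraries. All 8 were high in both MED13-LKO sucrose libraries and at 7.02 or less in both control sucrose libraries, and the fructose libraries of both genotypes lay between these. For *Ighv1-50* 69.2% and for *Gm13456* 73.2% of the 31-base subsequences occur in another gene. Of the 33 immunoglobulin genes in the table, 7 had a mean of at least 10, and the constant-region genes *Ighm* (57.4 and 40.7 against 60.4 and 42.2) and *Igkc* (53.7 and 53.0 against 84.8 and 81.9), given as sucrose against fructose in the MED13-LKO libraries, did not share the pattern.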

How the results depend on the processing

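With 2 mice per sugar, the number of genes called moved with the settings, and counts are given for genes lower and then higher with fructose in MED13-LKO, then for the difference between genotypes. Against 5, 0 and 13, a pseudocount of 10 gave 8, 0 and 9, no filter gave 5, 1 and 17, only the compared libraries gave 3, 1 and 4, and no trend gave 3, 0 and 17. Leaving out 1 mouse gave 0 to 7 lower genes, 0 to 4 higher genes and 2 to 13 for the difference between genotypes. The 4 higher genes came without fructose replicate 1, and the lowest counts came without a sucrose mouse, replicate 2 for the lower genes and replicate 1 for the difference between genotypes. In control mice, in settings added after seeing the data, 5 called genes became 12 with a pseudocount of 0.1, 3 with one of 10, 8 without a filter, 0 with only the compared libraries and 11 without a trend. The cause was not tested.

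Leave-one-out ranges of list medians were -0.675 to 0.029 for lipogenesis, 0.047 to 0.540 for cholesterol synthesis, 0.257 to 0.365 for heat shock, 0.221 to 0.643 for the unfolded protein response and 0.229 to 0.417 for Kupffer cell markers. Among the genes named, 11 reversed in some of these, none of them called between the sugars in MED13-LKO, with ranges of -0.70 to 0.38 for *Fasn*, -0.66 to 0.28 for *Acly*, -0.18 to 0.71 for *Pck1*, -0.12 to 0.23 for *Gys2*, -0.18 to 0.16 for *Foxo1*, -0.12 to 0.04 for *Col3a1*, -0.0006 to 0.63 for *Med13*, -0.19 to 0.31 for *Ighm*, -0.33 to 0.73 for *Fam177a*, -0.14 to 0.04 for *Alb* and -0.01 to 0.54 for *Hspa1b*. No named gene reversed under another setting.

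The titles number the mice of each group, but no source pairs them, and the deviations of same-numbered fructose and sucrose mice correlated at r = 0.0273 across 12366 genes. With a replicate block, 3 genes were called lower, 8 for the difference between genotypes and 3 in control mice.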

Other observations

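The genes below were picked after their values were seen, and none passed the adjustment between the sugars in MED13-LKO. For 4 of them the mice given fructose lay between the mice given sucrose and the fasted MED13-LKO mice. *Tat*, the tyrosine aminotransferase that glucocorticoid and glucagon induce, had 17430 and 20887 with sucrose, 28845 and 30809 with fructose and 66664 and 62038 when fasted (limma, adjusted p = 0.536). *Oat*, the ornithine aminotransferase of pericentral hepatocytes, had 13796 and 13218 with sucrose, 10579 and 9535 with fructose and 8922 and 8902 when fasted (adjusted p = 0.290). *Saa3*, an acute phase gene, had 63.2 and 58.1 with sucrose, 102 and 108 with fructose and 118 and 141 when fasted (adjusted p = 0.341), and *Mt1*, a metallothionein, had 170 and 411 with sucrose, 624 and 533 with fructose and 3073 and 2186 when fasted (adjusted p = 0.551). The sugars did not overlap for these 4 genes. Of all genes tested, 21.0% were lower and 19.7% higher without overlap, so nothing is read from this in genes picked by their values. In fasted control mice *Saa3* had 63.5 and 85.3, beside 70.7 and 73.8 with sucrose.

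Other genes did not follow that order. *Gadd45g*, a growth arrest gene, had 253 and 537 with sucrose and 77.4 and 68.5 with fructose, below the 334 and 1017 of the fasted mice (limma, adjusted p = 0.227). *Myc* had 65.3 and 250 with sucrose and 31.1 and 31.3 with fructose, beside 30.6 and 71.7 when fasted (adjusted p = 0.480). Of 18 PPAR alpha targets, 15 were lower with fructose with a median of -0.17, and none passed the adjustment. *Cyp8b1* of bile acid synthesis had 767 and 2104 with sucrose and 2858 and 2056 with fructose, so these mice overlapped (adjusted p = 0.581). *Hp*, haptoglobin, had 37796 and 37864 with sucrose and 47794 and 43171 with fructose (adjusted p = 0.640).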
